A study of Mus musculus with 10 samples.

Results

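Ets2, Egr1 and Foxk1 are 3 DNA-binding transcription factors carried on a mouse cDNA membrane, and their spots were found by the gene name printed in the files. The names were c-ets2 for Ets2, early growth response protein 1 (also KROX-24 or ZIF/268) for Egr1 and myocyte nuclear factor for Foxk1. They make up 3 of the 597 named genes and 6 of the 1194 named spots, because each gene was printed as 2 neighbouring spots. The genes were chosen by name, but with the measured difference between the groups on these arrays already known, so the differences given for them are descriptions and carry no test. Total RNA came from splenocytes (B and T lymphocytes, myeloid cells and others of the spleen) of 6-week-old mice on the FVB background. It compared 7 arrays of CD22DE12 transgenic mice with 3 arrays of wild-type mice. The labels give no treatment, and they state neither the promoter and species of the transgene nor the number of founder lines. Whether every array stands for its own animal is not stated, and the spread given here is therefore that between samples, which may be technical.

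Ets2 belongs to the ETS family, whose members bind DNA at a GGAA core. ETS2 is phosphorylated downstream of RAS and the ERK kinases, and it is known in macrophages and lymphocytes as an activator of protease, cytokine and survival genes. Egr1 is a zinc finger factor and an immediate early gene. Its transcription rises quickly and briefly after growth factor, stress or antigen receptor signals, partly through serum response elements to which SRF binds together with ETS family ternary complex factors such as ELK1. Foxk1 is a forkhead factor first described in myogenic progenitor cells as myocyte nuclear factor, and it is now known as a widely expressed repressor that acts in autophagy and glucose metabolism.

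Between 463 and 550 of the 597 genes were detected on an array, counting a gene as detected when at least 1 of its 2 spots carried the spot code 0. A second sitting of image quantification was inferred from clock times in the file headers, split at a gap of over 1 hour. The dates were not used for this split. The second sitting held transgenic replicates 6 and 7 and no wild-type array. The median gene stood 4.51 and 3.87 grey levels above its local background there, and 13.4 to 18.8 on the 8 arrays of the first sitting. Normalized signals are on the scale log2(grey levels + 50), and every difference on this scale is transgenic minus wild type. The added 50 grey levels make differences smaller than those of the signals themselves, most of all for dim spots. Over all 597 genes the median difference was 0.0019, with quartiles of -0.036 and 0.037. A difference below 0 was found for 288 genes, or 48.2%, and all 3 transcription factors were among them. By limma, 0% of the genes passed after Benjamini-Hochberg adjustment over the 597. Before adjustment 43 genes, or 7.2%, had a p under 0.05, and 29 of these, or 4.86%, were lower in the transgenic group.

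Ets2 spots stood close to their local background. Its signal above local background, as the mean of the 2 spots, was 13.3, 13.7 and 10.8 grey levels on wild-type replicates 1 to 3. On the 7 transgenic arrays the lowest value was 0.877, the median 7.19 and the highest 10.7 grey levels. Every transgenic array lay below every wild-type array, but the gap between transgenic replicate 1 and wild-type replicate 3 was only 0.0973 grey levels. On this scale 0.335% of the 597 genes were separated in this direction, both over all arrays and within the first sitting, and nothing is read from that share because the contrast was known when Ets2 was chosen. The lowest 2 values, 0.877 and 2.30, belonged to the dim second sitting. The group means were 6.21 ± 3.70 (SD, n = 7) and 12.6 ± 1.6 (SD, n = 3) grey levels, so the transgenic mean was 49.3% of the wild-type mean. Within the first sitting it was 63.9%, at 8.06 ± 2.30 grey levels (SD, n = 5). In such bulk RNA, fewer cells that express a gene and less RNA per cell cannot be told apart.

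Detection of Ets2 also differed between the groups in these arrays. All 6 wild-type spots had the code 0, against 8 of 14 transgenic spots. In the first sitting it was 7 of 10 transgenic spots, and in the dim second sitting 1 of 4. Over all named spots the share of code 0 was 78% on wild-type arrays, 80.4% on transgenic arrays of the first sitting and 69.1% on those of the second. By the rule of at least 1 spot, Ets2 was detected on 3 of 3 wild-type and 6 of 7 transgenic arrays, but both spots had the code 0 on only 2 transgenic arrays. The code followed the size of the signal. Ets2 spots of code 0 stood 3.44 to 14.6 grey levels above background, and the 6 spots of code 2 stood 0.498 to 3.34 above it. The total signal was 1.02 to 1.47 times the local background on transgenic arrays and 1.29 to 1.71 times on wild-type arrays. The background in this ratio was itself higher in the transgenic group, with means of 33.6 against 28.7 grey levels. Set against the median gene of its own array, Ets2 reached 22.6% to 66.9% of that median on transgenic arrays and 80.6% to 89.6% on wild-type arrays. The groups did not overlap on this scale, as for 0.838% of all genes in this direction. With background-corrected log2 values centred on each array's median, in place of quantile normalization, the Ets2 groups overlapped. The difference was then -0.082 (95% interval -0.19 to 0.027).

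**Figure D1:**
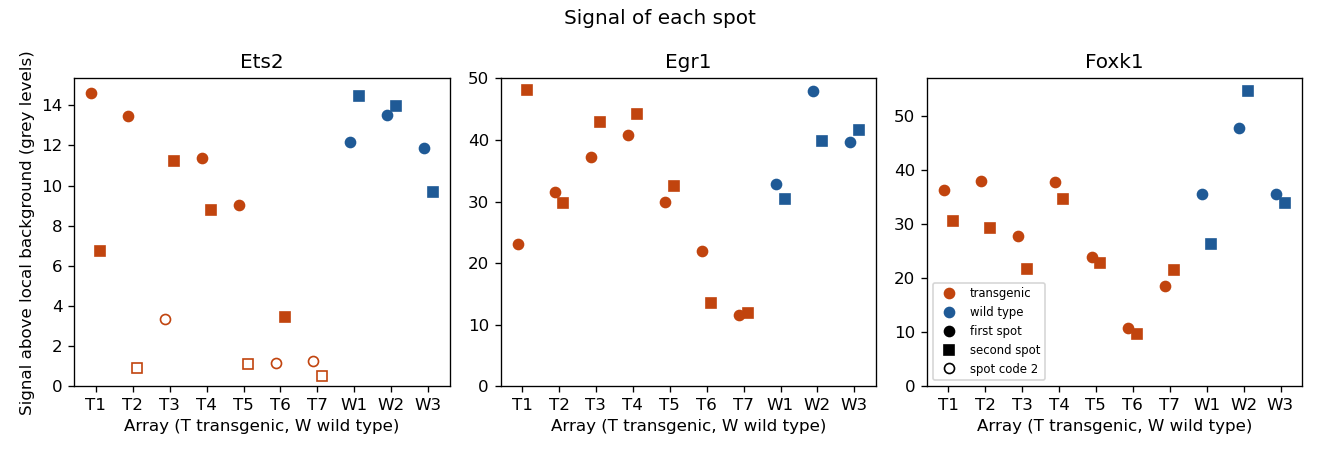
Signal above local background, in grey levels on a linear axis, of each of the 2 spots of Ets2, Egr1 and Foxk1 on transgenic arrays T1 to T7 and wild-type arrays W1 to W3; open symbols are spots of code 2. Ets2 is the one gene with open symbols, 6 in all and each on a transgenic array, and the duplicate spots of Ets2 on T2 lie 12.5 grey levels apart.

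After normalization Ets2 read 5.91, 5.88 and 5.86 on wild-type replicates 1 to 3. The transgenic arrays had a lowest value of 5.75, a median of 5.79 and a highest of 5.84. The means differed by -0.093 (standard error 0.028, 95% interval -0.16 to -0.032). The groups did not overlap, as for 1.17% of the 597 genes in this direction, and the gap between them was 0.029. This contrast was known when the gene was chosen, so nothing is read from that share. The duplicates of Ets2 varied more than its array means. A single Ets2 spot had an SD of 0.075 between duplicates, which gives 0.053 for a mean of 2 spots, whereas the pooled SD between arrays of a group was 0.027. With the first spot of each pair alone the difference was -0.073 and with the second alone -0.11, and with either spot alone the groups overlapped.

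Egr1 was detected on all 10 arrays, with code 0 at 20 of 20 spots. Its signal above local background was 31.6, 43.9 and 40.7 grey levels on wild-type replicates 1 to 3. The transgenic arrays had a lowest value of 11.7, a median of 31.2 and a highest of 42.5 grey levels. The groups overlapped, and the lowest 2 transgenic values, 11.7 and 17.7, were again those of the second sitting. The transgenic mean of 29.9 ± 11.4 grey levels (SD, n = 7) was 77.2% of the wild-type mean of 38.7 ± 6.37 (SD, n = 3). Within the first sitting it was 92.9%, at 36.0 ± 5.27 (SD, n = 5), a difference of -2.74 grey levels in place of -8.82. Set against the median gene of its own array, Egr1 reached 180% to 393% on transgenic and 213% to 304% on wild-type arrays. The groups overlapped on this scale, and the highest value was that of transgenic replicate 6.

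After normalization Egr1 read 6.34, 6.42 and 6.53 on wild-type replicates 1 to 3. The lowest transgenic value was 6.18, the median 6.25 and the highest 6.46. Replicate 6 was the one transgenic array above the wild-type mean, and 6 of 7 were below it. The means differed by -0.15 (standard error 0.062, 95% interval -0.28 to -0.011). Leaving out 1 array at a time gave -0.20, without wild-type replicate 1, to -0.097, without wild-type replicate 3. When the first sitting was normalized on its own, the difference was -0.17 and the groups did not overlap, though the highest transgenic value, 6.407 on replicate 5, lay close to the lowest wild-type value, 6.410 on replicate 1. In that sitting 2.18% of all genes were separated in this direction.

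The local background also differed between the groups, and not at Egr1 alone. The median background of an array was 38.1 to 54.6 grey levels in the transgenic group and 31.9 to 39.96 in the wild-type group. Group means of the background were 33.6 against 28.7 at Ets2, 44.97 against 38.7 at Foxk1 and 69.7 against 44.9 at Egr1. As a mean of both Egr1 spots it ran from 47.1 to 110.7 grey levels on transgenic arrays and from 36.2 to 52.7 on wild-type arrays. The first spot exceeded 100 grey levels on transgenic replicates 3 and 6, at 108 and 135, and on no wild-type array. Beside that spot in the same row lies Zfp36l1, which encodes an mRNA decay factor and is printed as butyrate response factor 1. Its total signal was 198 to 226 grey levels on transgenic and 166 to 215 on wild-type arrays. Without the spots of background above 100 grey levels the difference in Egr1 was -0.16, all 7 transgenic values were under the mean of the wild-type arrays and the groups did not overlap, as for 1.69% of the 592 genes left in this direction. With no background correction at all the difference was 0.059, the other direction. The duplicates were furthest apart on transgenic replicate 1, by 25.01 grey levels, and the SD of a single Egr1 spot was 0.111, against a median of 0.072 over all genes. How far the background accounts for the level of Egr1 was not tested.

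**Figure D2:**
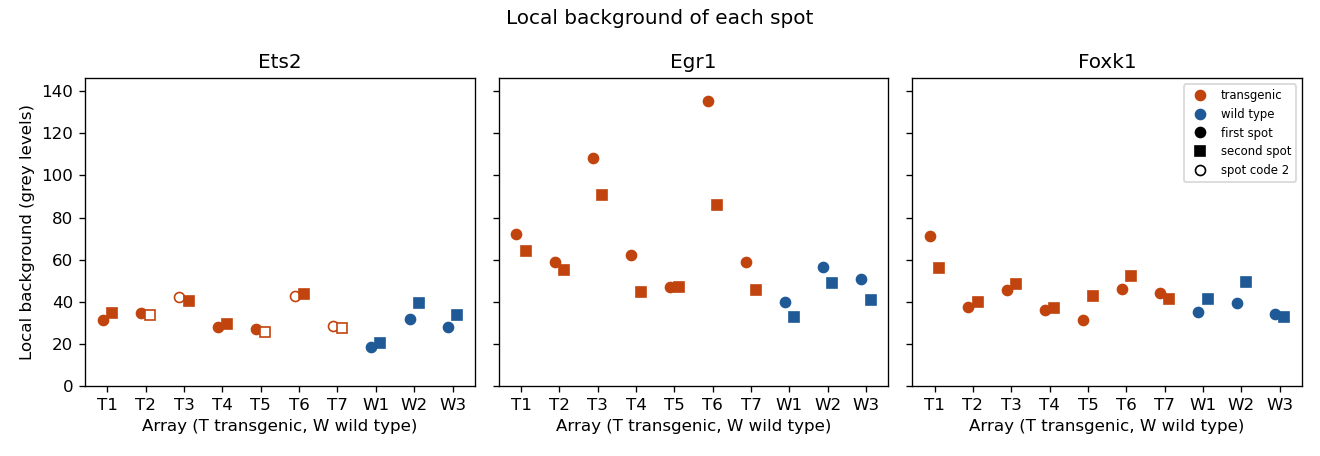
Local background in grey levels, on a shared linear axis, around each of the 2 spots of the 3 genes on transgenic arrays T1 to T7 and wild-type arrays W1 to W3, with open symbols for spots of code 2. The background of Egr1 reaches 135 grey levels on T6, whereas around Ets2 it stays between 18.5 and 43.5 on all arrays.

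Foxk1 was likewise detected everywhere, with code 0 at 20 of 20 spots. Its signal above local background was 30.9, 51.3 and 34.7 grey levels on wild-type replicates 1 to 3. The lowest transgenic value was 10.2, the median 24.8 and the highest 36.3 grey levels. The groups overlapped between 30.9 and 36.3 grey levels, and the lowest 2 transgenic arrays were those of the second sitting. The transgenic mean of 26.0 ± 9.28 grey levels (SD, n = 7) was 66.6% of the wild-type mean of 39.0 ± 10.8 (SD, n = 3). Within the first sitting it was 77.8%, at 30.3 ± 5.83 (SD, n = 5). Set against the median gene of its own array, Foxk1 reached 162% to 515% on transgenic and 208% to 310% on wild-type arrays. The groups overlapped on this scale too, and the highest value was that of transgenic replicate 7. The background at Foxk1 stayed at or below 71.3 grey levels on all arrays.

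After normalization Foxk1 read 6.32, 6.52 and 6.42 on wild-type replicates 1 to 3. The lowest transgenic value was 6.07, on replicate 3, the median 6.25 and the highest 6.37, on replicate 7. Each of the 7 transgenic values was under the mean of the wild-type arrays, and the overlap came from transgenic replicate 7 alone, which lay above wild-type replicate 1. The means differed by -0.19 (standard error 0.061, 95% interval -0.33 to -0.057). It ranged from -0.25 without wild-type replicate 1 to -0.14 without wild-type replicate 2. Within the first sitting it was -0.22 and the groups did not overlap, as for 2.18% of all genes in this direction. The contrast was known when Foxk1 was chosen, so nothing is read from that share. The 2 spots of Foxk1 differed by at most 9.30 grey levels on an array, and they gave -0.20 and -0.18 when used alone.

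**Figure D3:**
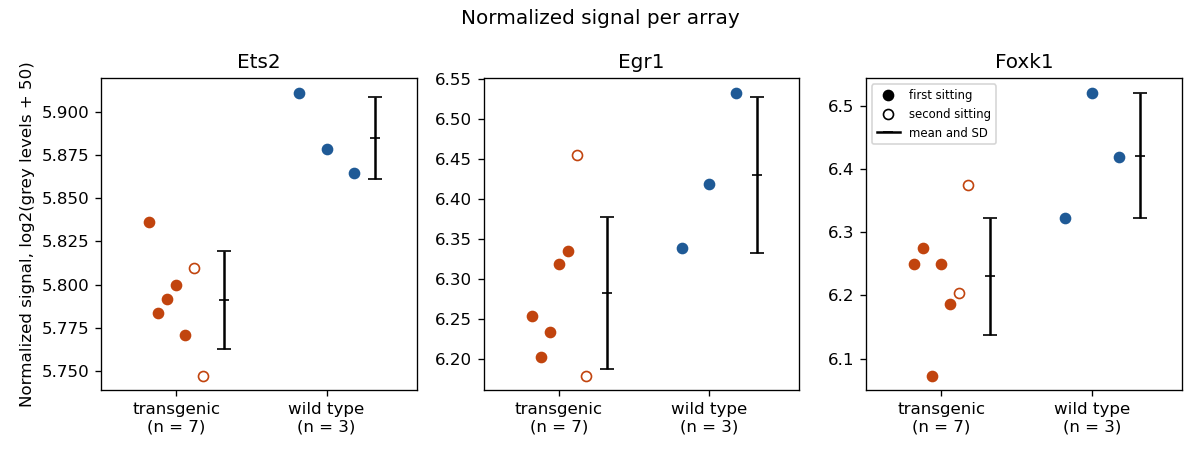
Normalized signal, log2(grey levels + 50), of the 3 genes on the 7 transgenic and 3 wild-type arrays, with the mean and SD of each group beside its points; open circles are the second sitting, and the axes differ and do not start at 0. For Ets2 all transgenic points lie below 5.84 and all wild-type points above it, whereas the groups overlap for Egr1 through replicate 6 and for Foxk1 through replicate 7 of the transgenic group.

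The size of each difference depended on the offset, the constant added to each background-corrected signal before the logarithm. Ets2 stood at -0.90 with no offset, -0.32 with 10 grey levels, -0.17 with 25, -0.093 with 50, -0.050 with 100 and -0.026 with 200. Over the same offsets Egr1 went from -0.41 to -0.30, -0.21, -0.15, -0.092 and -0.052. Foxk1 went from -0.53 to -0.38, -0.28, -0.19, -0.12 and -0.068. All 3 genes kept the lower mean in the transgenic group at each offset, which an offset could hardly change, but their order by size turned. Ets2, with the spots closest to background, had the largest difference of the 3 with no offset and the smallest from 25 grey levels up. With no offset Ets2 ranked 11th of 597 genes by absolute difference, and at 50 grey levels it ranked 119th, while Egr1 then ranked 44th and Foxk1 23rd. The 95% interval with no offset was widest, and for Egr1 it included 0 there.

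**Figure D4:**
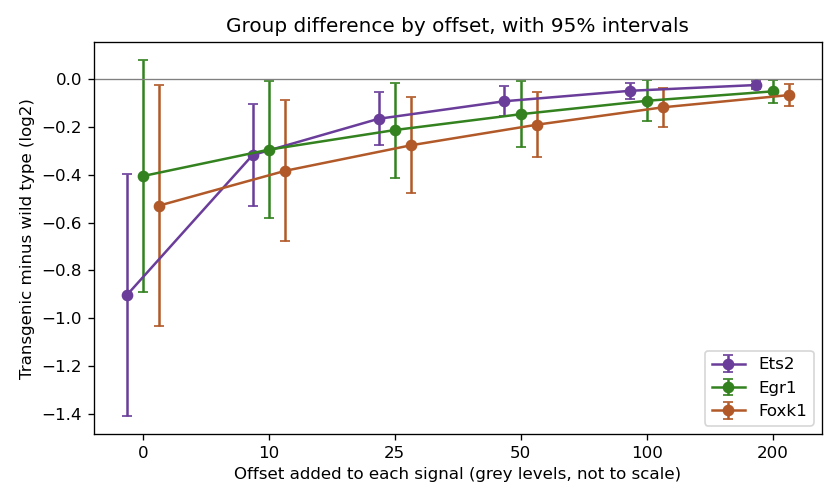
Difference between the groups, transgenic minus wild type in log2 units, for the 3 genes at 6 offsets in grey levels (evenly spaced, not to scale), with bars for the 95% interval. The lines shrink towards 0 as the offset grows, and Ets2 goes from -0.90 to -0.026 and crosses the other 2 between no offset and 25 grey levels.

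Whether the 3 genes varied together from array to array was asked within the transgenic group, where the group difference plays no part. Across the 7 transgenic arrays the 3 pairs were computed as 1 family with two-sided exact permutation tests. Ets2 and Egr1 had a Pearson r of 0.39 (exact p = 0.387, adjusted 0.461) and a Spearman rho of 0.50 (exact p = 0.267, adjusted 0.40). Without transgenic replicates 1 and 7, the arrays furthest from the median of Ets2, r was 0.51. Ets2 and Foxk1 had an r of -0.34 (exact p = 0.461, adjusted 0.461) and a rho of -0.29 (exact p = 0.556, adjusted 0.556), and r was 0.032 without the same 2 arrays. Egr1 and Foxk1 had an r of -0.33 (exact p = 0.454, adjusted 0.461) and a rho of -0.57 (exact p = 0.20, adjusted 0.40), and r was -0.32 without replicates 5 and 6. No pair passed, and with 7 arrays only a strong relation could. Over the 177906 pairs that the 597 genes form, the quartiles of r in these arrays were -0.33 and 0.33, and the values of the 3 pairs lay just outside them.

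With each group's mean removed, the 10 arrays gave r of 0.089 for Ets2 and Egr1, -0.42 for Ets2 and Foxk1 and -0.14 for Egr1 and Foxk1. The 8 arrays of the first sitting gave -0.52, -0.083 and 0.21. The sign thus turned between the sets of arrays for Ets2 with Egr1 and for Egr1 with Foxk1. The second sitting held opposite extremes. On transgenic replicate 7 Ets2 and Egr1 had their lowest normalized values and Foxk1 its highest of the group, and on replicate 6 Egr1 had its highest. All 3 genes lie in the same print block of the membrane.

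**Figure D5:**
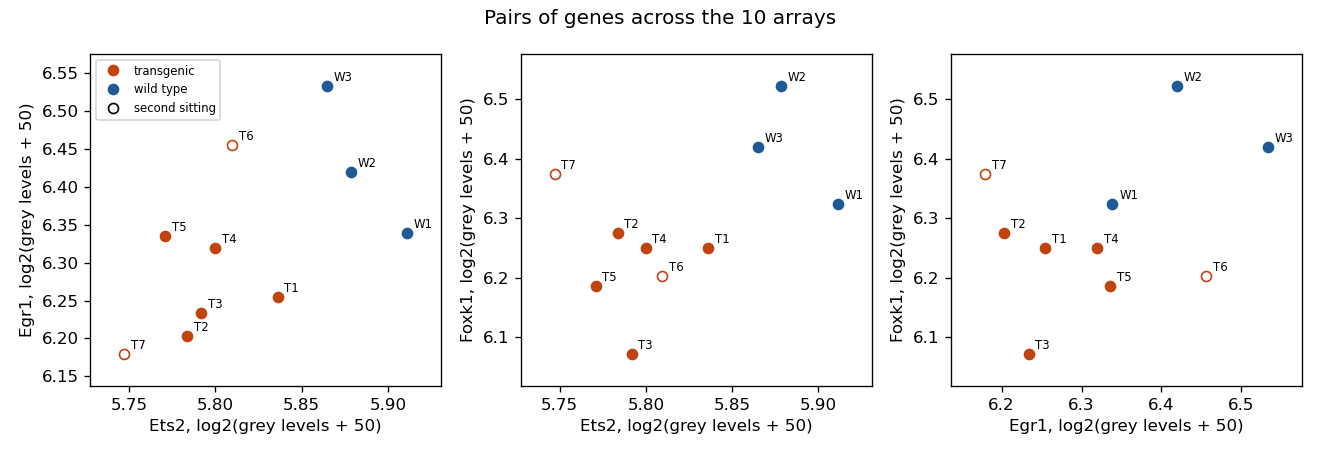
Normalized signals, log2(grey levels + 50), of the 3 pairs of genes on the 10 arrays, with transgenic arrays T1 to T7, wild-type arrays W1 to W3 and open circles for the second sitting. The wild-type arrays lie to the right in both panels of Ets2, and among the transgenic arrays no pair forms a line: r is 0.39, -0.34 and -0.33 from left to right.

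The genes whose array-to-array pattern was most like each of the 3 were sought among the 357 genes detected on all 10 arrays, by Pearson r over the 10 arrays with group means removed. These values are descriptions, since the points share depth and sitting and only the highest values are given. For Ets2 they were Rag1, a subunit of the V(D)J recombinase, with r of 0.82, the small GTPase gene Rac1 with 0.78 and Ifngr2, a chain of the interferon gamma receptor, with 0.76. Over the 8 first-sitting arrays these were 0.87, 0.74 and 0.59. The membrane carries a further entry printed with the name RAG-1, also detected on all 10 arrays, whose r with Ets2 was -0.11 (0.24 in the first sitting) and whose r with the first Rag1 entry was -0.39. The entries disagree, so the likeness to Ets2 belongs to 1 printed entry and is uncertain for the gene. For Egr1 they were the cyclin-dependent kinase gene Cdk7 with 0.79, the EGF receptor substrate gene Eps8 with 0.74 and the NF-kB subunit gene Rel with 0.71. Over the first sitting Cdk7 and Eps8 stood at 0.39 and 0.26, whereas Rel stood at 0.82. For Foxk1 they were Pecam1, an adhesion molecule of endothelial and blood cells, with 0.93, the inflammatory caspase gene Casp1 with 0.83 and the protein kinase C gene Prkca with 0.83. Over the first sitting the Foxk1 neighbours stood at 0.90, 0.80 and 0.81, and none of the 9 neighbours was shared between the 3 genes. The group differences of the 9 neighbours were not alike. Rag1 stood at -0.10, Rac1 at 0.011 and Ifngr2 at -0.23, with standard errors of 0.083, 0.046 and 0.064. Cdk7 stood at 0.0024, Eps8 at -0.027 and Rel at 0.015, with standard errors of 0.033, 0.113 and 0.039. Pecam1 stood at -0.14, Casp1 at 0.018 and Prkca at 0.16, with standard errors of 0.088, 0.087 and 0.037.

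The families of the 3 genes and the pathways around them did not share one direction. In the ETS family 8 of 26 listed genes were on the membrane, Ets2 included. Of these, 2 had a higher and 6 a lower mean in the transgenic group. The median was -0.0084 and 0 of the 8 passed over all genes, beside a median of 0.0019 and 0 calls over the 597. Without Ets2, 2 were higher and 5 lower, with a median of -0.0053. Elk3, a ternary complex factor, stood at -0.12 with a standard error of 0.071, and Fli1, an ETS factor of blood and endothelial cells, stood at -0.11 with a standard error of 0.099. Elk1 and Elk4, the other ternary complex factors, stood at -0.012 and 0.0065. Of the immediate early and EGR genes 13 of 28 were measured, Egr1 included. Of these, 8 were higher and 5 lower, with a median of 0.0079 and 0 that passed. Without Egr1, 8 were higher and 4 lower, with a median of 0.0088. Besides Egr1, the AP-1 subunit gene Jun stood at 0.10 and the orphan nuclear receptor gene Nr4a1 at 0.057, with standard errors of 0.169 and 0.048. Fos, the AP-1 partner of Jun, stood at 0.0048. Of the forkhead genes other than Foxk1, Foxf1, a factor of mesenchyme, stood at 0.026 with a standard error of 0.056, and it did not pass.

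Upstream of ETS2 and EGR1, 8 of 18 listed genes of the RAS and ERK cascade were measured, 5 higher and 3 lower, with a median of 0.018 and 0 that passed. Map2k1, the kinase that phosphorylates ERK, stood at -0.25 with a standard error of 0.113. Mapk3, which encodes ERK1, stood at 0.13 with a standard error of 0.052, and the RAF kinase gene Braf stood at 0.047. Downstream, 11 of 17 listed genes described elsewhere as targets of ETS2 or EGR1 were measured, 7 higher and 4 lower, with a median of 0.0078 and 0 that passed. The hyaluronan receptor gene Cd44 stood at 0.16, the cytokine gene Tgfb1 at -0.11 and the angiogenic growth factor gene Vegfa at -0.094, with standard errors of 0.115, 0.067 and 0.043. Of 12 listed skeletal muscle genes, chosen for the name myocyte nuclear factor, Myf5 alone was measured, at 0.039, and it did not pass.

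Markers of spleen cell types were read beside these genes, and none passed over all genes. Of 9 listed B cell markers 5 were measured, among them Cd22, whose name the transgene carries. Each of the 5 had a lower mean in transgenic arrays, with a median difference of -0.13 and 0 that passed. Their mean level ran from 6.37 to 6.59 on transgenic and from 6.51 to 6.74 on wild-type arrays, and all 5 were detected on every array. Of 5 measured T cell markers 2 were higher and 3 lower, with a median of -0.036 and a mean level of 6.03 to 6.19 against 6.13 to 6.16. Of 5 myeloid markers 4 were higher, with a median of 0.11 and a mean level of 6.52 to 6.75 against 6.46 to 6.58. Both measured erythroid markers were higher, with a median of 0.17 and a level of 6.05 to 6.99 against 6.15 to 6.50. Of 4 stromal and endothelial markers 1 was higher and 3 lower, with a median of -0.026 and a level of 6.18 to 6.38 against 6.32 to 6.40. Before adjustment, 3 of the 5 B cell and 1 of the 5 myeloid markers had a limma p under 0.05, beside 7.2% of all genes. Of the T cell, erythroid, and stromal and endothelial markers 0 did. The part of cell composition in the levels of Ets2, Egr1 and Foxk1 was not tested.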

How the data were processed

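Splenocyte RNA was copied into 32P-labelled cDNA and hybridised to nylon membranes, per the labels' protocols. The deposited intensity is a mean grey level, given for every spot and for its local background and not normalized, per the file headers. The other deposited measure is the spot code. The sources used here do not explain codes 0 and 2, and code 0 was taken as detected because those spots were brighter. A deposited table of processed values was not used, because its entries carry no gene names. Nor do the sources used here give the exposure or the linearity of the image. The number of arrays limits the precision.

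From these, background was corrected with normexp (offset 50 grey levels). Quantile normalization used the named spots, and duplicates were averaged on the log2 scale. The 126 unnamed spots per array entered only the background fit. All 597 genes were fitted with limma 3.58.1 in R 4.3.3 (lmFit and eBayes, two-sided, Benjamini-Hochberg, threshold 0.05), which also gave the differences, standard errors and 95% intervals. The steps were tested on simulated data, with changes far larger than those described here, placed in genes detected on all arrays. That test does not bear on dim genes such as Ets2 or on small differences. Spearman correlations used SciPy 1.17.1, and figures matplotlib 3.10.9. Pearson correlations, the exact permutation tests and their adjustment were computed with purpose-written code in Python 3.11.15. The sitting was inferred from clock times in the file headers, without the dates, and was also fitted as a block.

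The alternatives were other offsets, background corrections, normalizations, filters on dim genes, single spots, array weights, a trended robust prior, the sitting, and leaving out each array. Leaving out spots of background above 100 grey levels, centring on the print block and the first-sitting correlations were chosen after seeing the data. Printed names were paired by hand with 73 mouse symbols, all found in the RefSeq table of GRCm38.p6. The genes, the lists and the rule for naming were chosen with earlier results of these data known. The rule took the 3 genes, their 3 closest genes each, and every measured gene of a list, or the 3 with the largest absolute difference where over 6 were measured. Elk1, Elk4, Fos, Zfp36l1 and the further RAG-1 entry were added after their values were seen. Of the marker lists only counts, medians and levels are given, with Cd22 named because of the transgene. An item of the forkhead list is not reported here.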

Additional observations from a re-analysis of the deposited data

Results flagged for a closer look

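A single array far from the rest of the transgenic group was sought in 28 values: the normalized signals of the genes named by the rule and the signals above background of the 3 genes. There were 3, where chance gives about 1.4, since about 1 in 20 is found with no effect. On transgenic replicate 4 Elk3 read 6.16 in normalized log2 signal, and the rest of its group read 6.00 to 6.05. Eps8, the second closest gene to Egr1, had 6.49 on transgenic replicate 6, against 5.90 to 6.09, and Egr1 itself had its highest transgenic value on that array. Myf5 had 5.93 on transgenic replicate 4, against 6.11 to 6.24. Ets2, Egr1 and Foxk1 had no such array on either scale. The 3 wild-type arrays are too few for this search.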

How the results depend on the processing

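The difference was below 0 under all 29 alternatives for Ets2, all 30 for Foxk1 and 29 of 30 for Egr1. Offsets, filters, the prior and leaving out 1 array could hardly turn the sign, so nothing is read from these counts. With no background correction Egr1 turned to 0.059, Ets2 stood at -0.28 and Foxk1 at -0.30. Background subtraction with a floor gave -0.98 for Ets2, -0.39 for Egr1 and -0.50 for Foxk1. With no offset they stood at -0.90, -0.41 and -0.53, and with 10 grey levels at -0.32, -0.30 and -0.38. Ets2 also moved to -0.17 with 25, -0.050 with 100 and -0.026 with 200 grey levels, and Foxk1 to -0.068 with 200. An offset shrinks differences by its construction, and the other causes were not tested. Centring on the membrane's housekeeping genes gave -0.032 for Ets2, -0.062 for Egr1 and -0.13 for Foxk1, each with a 95% interval that included 0. It moved the median of all genes to 0.065 and turned the split at an unadjusted p under 0.05 from 14 higher and 29 lower to 20 and 4; median centring gave 14 and 15, and no offset 17 and 17. The Ets2 groups did not overlap in 24 of 29 alternatives, and they overlapped with median or housekeeping centring, with either spot alone and with print-block centring. The filter that kept Ets2, array weights, the trended robust prior, the sitting block and the background limit left its normalized values unchanged. Another offset or leaving out 1 array could hardly make groups already apart overlap. In the main setting 1.17% of the 597 genes were separated in this direction. The contrast was known, so nothing is read from this count either. The interval of Egr1 also included 0 with median centring (-0.26 to 0.032), the trended robust prior (-0.32 to 0.020), either spot alone, no offset, background subtraction and no background correction. That of Ets2 did so with median centring and the first spot. Leaving out 1 array gave -0.10 to -0.080 for Ets2, -0.20 to -0.097 for Egr1 and -0.25 to -0.14 for Foxk1. The interval of Egr1 included 0 without transgenic replicate 1, 2, 3 or 7 and without wild-type replicate 2 or 3, and that of Foxk1 without wild-type replicate 2. Every alternative called 0 of the genes tested by limma after adjustment.

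Correlations also changed sign. Across the 7 transgenic arrays Ets2 with Egr1 turned to -0.56 with median centring and -0.49 with the first spot. With group means removed, this pair stood at -0.52 over the 8 first-sitting arrays of both groups, against 0.089 over all 10. Ets2 with Foxk1 turned to 0.073 with cyclic loess, 0.62 with housekeeping centring and 0.57 with the first spot. Egr1 with Foxk1 turned to 0.034 with cyclic loess and 0.42 with housekeeping centring. With no background correction it was -0.92 (exact permutation, adjusted p = 0.0137), or -0.55 without transgenic replicates 3 and 6. With group means removed, it stood at 0.21 over the 8 first-sitting arrays, against -0.14 over all 10. The causes were not tested. No paired analysis was possible because the labels used here do not match any transgenic array with a wild-type array. Signal over background limits Ets2 most, at 1.02 to 1.71 times.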
